A study of Mus musculus with 12 samples.

Results

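The 9 genes described here encode enzymes that make and break down heme in mouse hepatocytes. They were taken from a list of names, with no threshold on their values. Of 28030 gene identifiers in the deposited table, 12086 passed the filter on low counts, and all 9 members were among them. The 7 synthesis genes are Alas1, Alad, Uros, Urod, Cpox, Ppox and Fech. The 2 breakdown genes are Hmox1 and Blvrb.

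Heme is an iron-bearing ring that sits in cytochromes P450, catalase, tryptophan dioxygenase and the respiratory chain, and the liver is its largest producer outside the bone marrow. Synthesis starts in the mitochondrion, where ALAS1 joins glycine to succinyl-CoA in the rate-limiting step of the hepatocyte. The middle steps run in the cytosol, and the last ones return to the mitochondrion, where ferrochelatase inserts the iron. Heme oxygenase opens the ring to biliverdin, and biliverdin is reduced to bilirubin, which hepatocytes conjugate and pass into bile.

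Hepatocytes came from livers of wild-type (WT) female mice aged 12 weeks on normal chow. For 3 days all mice were trained to 16 h without food overnight and 8 h with food by day, and on the experimental day all had food with water holding 20% sucrose. Fed mice were killed after 4 h of this feeding, and fasted mice were killed 24 h after food and sucrose water had been removed. From each state, pericentral hepatocytes (PC), which surround the central vein, and periportal hepatocytes (PP), which lie beside the portal tract, were isolated with digitonin, a detergent that permeabilises the cells it reaches. Each of the 4 groups (fed PC, fed PP, fasted PC, fasted PP) has 3 libraries labelled as biological replicates. The labels do not say whether mice were pooled or whether libraries of the 2 zones with the same number share a mouse.

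Library totals ran from 16245846 to 27449412 estimated counts. Over all 12 libraries the 10 hepatocyte markers summed to 100900 to 189292 CPM (counts scaled to a common library size), against 0.927 to 11.6 CPM for liver macrophage markers, 5.74 to 33.4 CPM for endothelial and 14.8 to 51.7 CPM for bile duct markers. Bile duct markers were lower in PC than PP libraries without overlap, at 26.8 to 32.1 against 39.4 to 51.7 CPM in fed and 14.8 to 28.3 against 37.4 to 40.9 CPM in fasted mice; their part in the zone results was not tested. Pericentral markers summed to 13672 to 24437 CPM in PC libraries and to 373 to 1996 CPM in PP libraries, so the zone labels hold on this measure. Periportal markers summed to 2962 to 3632 CPM in fed PC, 8962 to 11193 in fed PP, 7717 to 9498 in fasted PC and 16200 to 22255 in fasted PP libraries. One fasted PC library, replicate 1, had 172 CPM of Glul, the gene of the glutamine synthetase of the innermost pericentral cells, while replicates 2 and 3 of that group had 3639 and 2353 CPM. PP libraries had 49.3 to 173 CPM of Glul, so on this gene replicate 1 lay within their range. Red cell markers stood high in fasted PC replicate 2 (446 CPM) and fasted PP replicate 3 (152 CPM), against 10.6 to 50.5 CPM elsewhere. Values without these 3 libraries are given beside the calls of members that they change, and beside some other results. In RNA from pooled cells, fewer cells expressing a gene and less RNA per cell cannot be told apart.

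RefSeq promoter windows on build GRCm38.p6 matched 7 of the 9 members. Alas1, Alad, Uros and Blvrb had 2 windows each, and only 1 window per gene is described here. Each window spans 250 bases before and 50 bases after a transcription start. Shown are Alas1, the gene of the rate-limiting step, and Alad, Cpox and Blvrb, the 3 members that were higher in PC hepatocytes. Capitals mark any match to 6 motifs searched on both strands: the NRF1 element GCGCATGCGC, the E-box CACGTG, the TCF/LEF element CTTTGAT, the antioxidant response element TGACNNNGC, and the GATA elements AGATAA and TGATAA.
Alas1 promoter, chr9:106247905-106248204, minus strand: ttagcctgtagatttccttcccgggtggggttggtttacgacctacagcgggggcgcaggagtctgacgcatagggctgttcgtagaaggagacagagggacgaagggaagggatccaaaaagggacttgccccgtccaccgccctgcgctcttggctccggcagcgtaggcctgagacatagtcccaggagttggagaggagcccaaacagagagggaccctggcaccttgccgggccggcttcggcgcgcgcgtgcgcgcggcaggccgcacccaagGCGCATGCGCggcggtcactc
Alad promoter, chr4:62519860-62520159, minus strand: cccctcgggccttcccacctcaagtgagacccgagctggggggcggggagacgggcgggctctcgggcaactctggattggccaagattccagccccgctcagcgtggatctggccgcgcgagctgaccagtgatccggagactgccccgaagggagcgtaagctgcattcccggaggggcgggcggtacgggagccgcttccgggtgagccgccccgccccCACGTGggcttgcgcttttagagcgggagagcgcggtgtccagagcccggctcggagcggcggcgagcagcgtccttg
Cpox promoter, chr16:58669958-58670257, plus strand: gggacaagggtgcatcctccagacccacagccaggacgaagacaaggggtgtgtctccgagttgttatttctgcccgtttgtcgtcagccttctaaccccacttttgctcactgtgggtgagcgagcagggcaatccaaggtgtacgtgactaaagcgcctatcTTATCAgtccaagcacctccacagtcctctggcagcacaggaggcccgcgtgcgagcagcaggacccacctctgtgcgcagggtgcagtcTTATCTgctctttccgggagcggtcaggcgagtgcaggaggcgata
Blvrb promoter, chr7:27447728-27448027, plus strand: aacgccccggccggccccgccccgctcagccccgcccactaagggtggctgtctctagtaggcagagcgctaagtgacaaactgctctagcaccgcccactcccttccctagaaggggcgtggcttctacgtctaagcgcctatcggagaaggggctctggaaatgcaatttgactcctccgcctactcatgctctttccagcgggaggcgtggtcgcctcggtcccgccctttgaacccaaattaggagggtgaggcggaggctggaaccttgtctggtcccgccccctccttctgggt
The Alas1 window holds the NRF1 element at positions 29 to 38 after the start; 0.971% of 32851 promoter windows hold one. The start RefSeq gives for Alas1 lies downstream of that of its longest GENCODE coding transcript. The Alad window holds an E-box 28 to 23 bases before the start, a motif of 7.15% of windows. Urod and Uros windows also hold an E-box, 49 to 44 and 250 to 245 bases before their starts. The Cpox window holds TTATCA, the reverse complement of TGATAA, from 86 to 81 bases before the start, and TTATCT, that of AGATAA, from 4 to 9 after it. Those GATA elements occur in 9.05% and 11.2% of windows. In the Blvrb and Ppox windows none of the 6 motifs was found. The 3 genes with higher PC levels share none of these motifs in their windows. As spelled above, the TCF/LEF element (3.73% of windows) and the antioxidant response element (12.4%) were in none of the 7 windows. Other spellings of the 6 motifs were not searched, so a window without a match may still hold a variant. A match is a stretch of letters, and binding was not measured.

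In outline, Alad, Cpox and Blvrb RNA was higher in PC than in PP hepatocytes of both fed and fasted mice, while Alas1 RNA did not pass the test in any comparison. Uros RNA fell with fasting in both zones, and Fech RNA fell with fasting in PC hepatocytes. In the test averaged over zones, on all 12 libraries, Alad, Uros, Ppox and Fech fell with fasting and none of the 9 was called as a rise. That test called 35.3% of all genes, in either direction. The Ppox and Fech calls each held in only 4 of the 12 fits that left out 1 library. Differences are log2 fold changes ± standard error (SE) from edgeR's quasi-likelihood test, and a gene counts as called at a p under 0.05 after Benjamini-Hochberg adjustment over all 12086 genes. Levels are CPM in replicates 1, 2 and 3, with mean ± SD and n = 3 libraries per group.

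**Figure D1:**
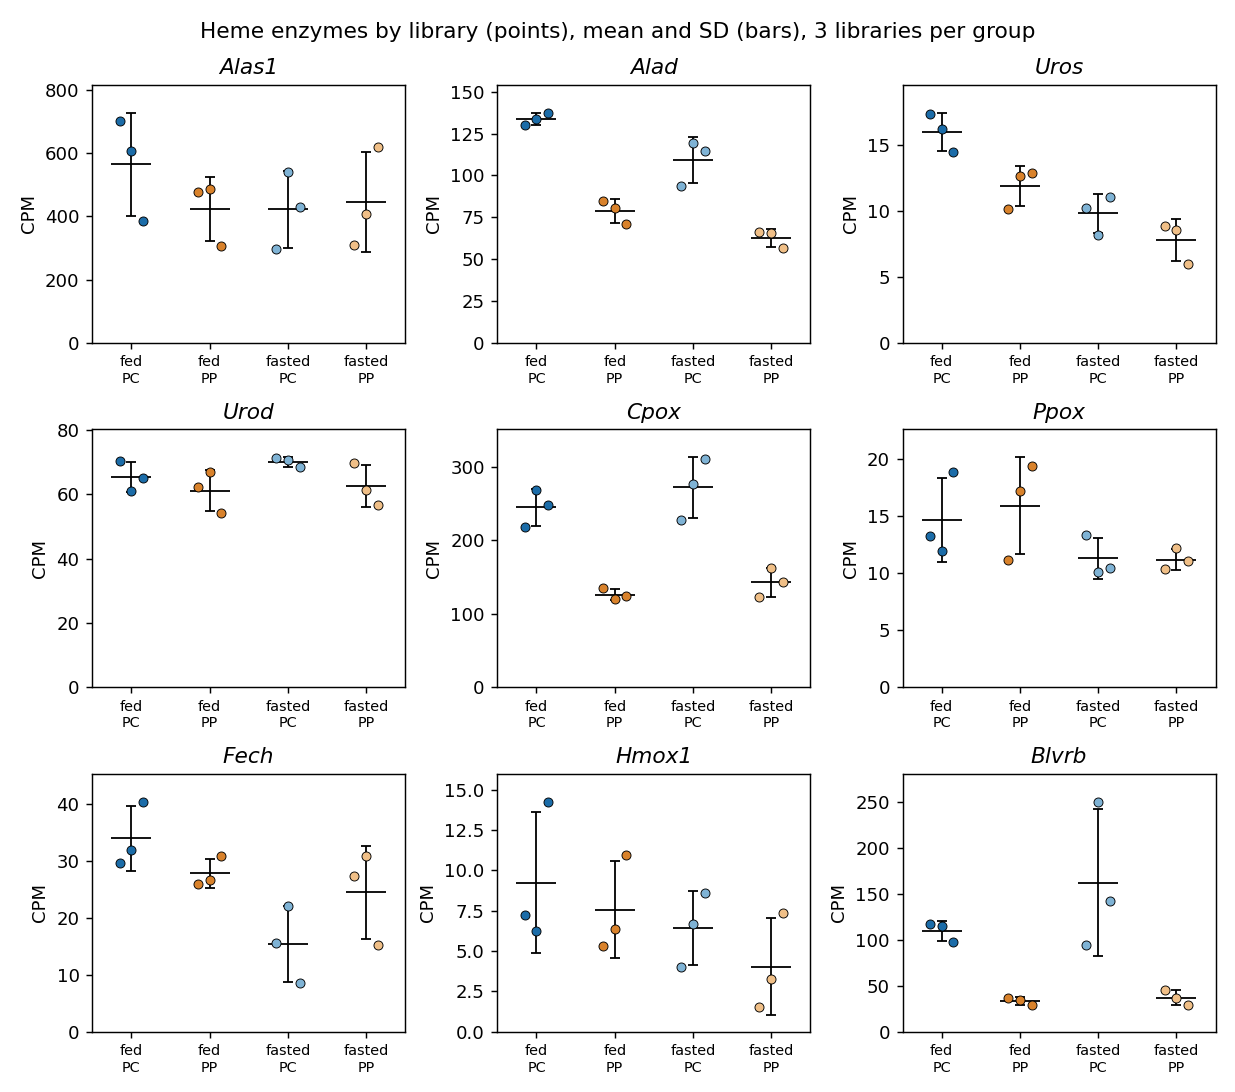
Level of each of the 9 genes in CPM (vertical axis, from 0) in the 12 libraries (points) of the 4 groups, with group mean (long bar) and SD (error bar), n = 3 per group. Alad, Cpox and Blvrb show PC points above PP points in both feeding states, and the Alas1 points of the 4 groups cover one another.

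Alas1 (chromosome 9, 106233455 to 106248654, minus strand, GRCm38) read 703, 608 and 385 CPM in fed PC hepatocytes and 478, 488 and 305 CPM in fed PP hepatocytes. In fasted mice it read 297, 539 and 430.3 CPM in PC and 309, 409 and 619.8 CPM in PP hepatocytes. All 4 groups overlapped, with means of 566 ± 164, 424 ± 102, 422 ± 121 and 446 ± 158 CPM in that order. PC against PP gave 0.42 ± 0.31 in fed mice (95% interval -0.27 to 1.11, adjusted p = 0.60) and -0.08 ± 0.31 in fasted mice (-0.77 to 0.61, adjusted p = 0.93). Fasting gave -0.42 ± 0.31 in PC hepatocytes (-1.11 to 0.27, adjusted p = 0.37) and 0.07 ± 0.31 in PP hepatocytes (-0.61 to 0.76, adjusted p = 0.90). Without fasted PC replicate 1 the PC value was -0.24, without replicate 2 it was -0.63, and without fasted PP replicate 3 the PP value was -0.23. The intervals over all 12 libraries still allow a doubling of Alas1 by zone in fed mice or a halving by fasting in PC hepatocytes. Within a group the libraries of Alas1 differed by up to 35.5% of their mean (SD over mean, fasted PP), on 5776 to 19801 counts a library. Its exons share 465 bases (7.53% of the exonic length) with the opposite-strand transcript 4930500F10Rik, whose reads an unstranded library cannot separate.

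The genes whose profiles over the 12 libraries lay closest to Alas1, by the root mean square difference of centred log2 CPM, were Cflar (0.25), Nck1 (0.26), Onecut2 (0.26), Mbl1 (0.27) and Cbfb (0.29). The median over genes was 0.47; the 5 were picked as the closest. CFLAR is an inhibitor of caspase-8, ONECUT2 a liver transcription factor and MBL1 a mannose-binding lectin of plasma.

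Alad encodes the cytosolic enzyme that joins paired aminolevulinate molecules to porphobilinogen (chromosome 4, 62509169 to 62519918, minus strand). It read 130.3, 134 and 138 CPM in fed PC and 84.7, 80.5 and 70.7 CPM in fed PP hepatocytes. In fasted mice it read 93.8, 119.6 and 114 CPM in PC and 66.0, 65.7 and 56.4 CPM in PP hepatocytes. Every PC library lay above every PP library, in each feeding state and across them. Alad was 1.70-fold higher in PC than PP hepatocytes of fed mice (log2 0.77 ± 0.11, adjusted p = 0.0019). In fasted mice it was 1.74-fold higher (0.80 ± 0.11, adjusted p = 0.0014). The fasted value was 0.89 without fasted PC replicate 1, the library low in Glul, 0.73 without replicate 2, and 0.72 without fasted PP replicate 3. Fasting gave -0.29 ± 0.11 in PC (adjusted p = 0.088) and -0.33 ± 0.11 in PP hepatocytes (adjusted p = 0.066), and fed and fasted libraries did not overlap in either zone. Averaged over zones, Alad fell by 0.31 ± 0.081 (adjusted p = 0.0098), and the call held in all 12 fits that left out 1 library. The PP value passed in DESeq2 (-0.32, adjusted p = 0.048) and in 2 of those 12 fits, without fasted PC replicate 1 (-0.32, adjusted p = 0.039) and without fed PP replicate 3 (-0.40, adjusted p = 0.049).

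Uros encodes uroporphyrinogen III synthase, which closes the ring in its natural isomer (chromosome 7, 133686243 to 133710072, minus strand). It read 17.3, 16.2 and 14.4 CPM in fed PC and 10.1, 12.6 and 12.8 CPM in fed PP hepatocytes. After fasting it read 10.2, 8.12 and 11.0 CPM in PC and 8.83, 8.57 and 5.97 CPM in PP hepatocytes. In both zones all fed libraries lay above all fasted ones. Uros fell 1.63-fold in PC hepatocytes (log2 -0.71 ± 0.18, adjusted p = 0.013) and 1.52-fold in PP hepatocytes (-0.61 ± 0.18, adjusted p = 0.033). Averaged over zones the fall was 0.66 ± 0.13 (adjusted p = 0.0015), called in all 12 fits that left out 1 library. The PC call was lost without fasted PC replicate 2 (-0.59, adjusted p = 0.059). The PP call was lost without fasted PP replicate 2 (-0.68, adjusted p = 0.0504) or 3 (-0.44, 0.11), without fed PP replicate 2 (-0.55, 0.11) or 3 (-0.54, 0.0997), and in the fit of these 2 groups alone (-0.59, 0.077). Between zones, fed PC and fed PP libraries did not overlap, but the difference of 0.43 ± 0.17 missed the threshold (adjusted p = 0.22), as did 0.33 ± 0.18 in fasted mice (adjusted p = 0.35). The gene rests on 131 to 487 counts a library.

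Urod encodes uroporphyrinogen decarboxylase, the last wholly cytosolic step (chromosome 4, 116989965 to 116994413, minus strand). It was the least variable member, between 54.2 and 71.1 CPM in all 12 libraries. Group means were 65.4 ± 4.68 (fed PC), 61.0 ± 6.36 (fed PP), 70.0 ± 1.49 (fasted PC) and 62.6 ± 6.52 CPM (fasted PP). None of its differences passed the test; PC against PP gave 0.10 ± 0.11 in fed mice (95% interval -0.13 to 0.33) and 0.16 ± 0.11 in fasted mice (-0.07 to 0.39). Fasting gave 0.10 ± 0.11 in PC (-0.13 to 0.33) and 0.04 ± 0.11 in PP hepatocytes (-0.20 to 0.27). The upper bounds lie below the zone differences fitted for Alad and Cpox.

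Cpox encodes coproporphyrinogen oxidase, in the space between the mitochondrial membranes (chromosome 16, 58670292 to 58717636, plus strand). It read 218, 269 and 248 CPM in fed PC and 135, 119.5 and 124 CPM in fed PP hepatocytes. In fasted mice it read 228, 277 and 310.4 CPM in PC and 123.1, 163 and 143 CPM in PP hepatocytes. No PC library overlapped a PP library in either state. Cpox was 1.94-fold higher in PC hepatocytes of fed mice (log2 0.96 ± 0.14, adjusted p = 0.0016) and 1.90-fold higher in fasted mice (0.93 ± 0.14, adjusted p = 0.0019). Without fasted PC replicate 1 the fasted value was 1.03, and it was 0.92 without fasted PC replicate 2 and 0.91 without fasted PP replicate 3. Fasting itself gave 0.15 ± 0.14 in PC (95% interval -0.15 to 0.45) and 0.18 ± 0.14 in PP hepatocytes (-0.12 to 0.48), neither called. Cpox shares 204 exonic bases (3.06%) with Gpr15 on the opposite strand.

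Ppox encodes protoporphyrinogen oxidase, which turns the ring into protoporphyrin (chromosome 1, 171275990 to 171281186, minus strand). It read 13.3, 11.9 and 18.8 CPM in fed PC and 11.2, 17.2 and 19.3 CPM in fed PP hepatocytes. After fasting it read 13.3, 10.1 and 10.4 CPM in PC and 10.3, 12.2 and 11.0 CPM in PP hepatocytes. The groups overlapped, and the fed libraries were the more spread. No comparison of 2 groups passed, with fasting at -0.37 ± 0.22 in PC (adjusted p = 0.25) and -0.51 ± 0.22 in PP hepatocytes (adjusted p = 0.13, called without fed PP replicate 1 at -0.70, adjusted p = 0.037). Averaged over zones Ppox fell by 0.44 ± 0.15 (adjusted p = 0.042), a call kept in 4 of the 12 fits that left out 1 library. It was lost without replicates 2 or 3 of fasted PC (adjusted p = 0.090 and 0.082), 1 or 3 of fasted PP (0.086 and 0.069), 1 or 3 of fed PC (0.051 and 0.11), and 2 or 3 of fed PP (0.086 and 0.10). The call was also lost with the replicate number as a block (-0.42, adjusted p = 0.053). Ppox shares 791 exonic bases (17.5%) with B4galt3, a galactosyltransferase gene on the opposite strand. B4galt3 rose with fasting by 0.62 ± 0.21 in PC hepatocytes (adjusted p = 0.04999), with 0.20 ± 0.20 in PP hepatocytes (adjusted p = 0.56). Reads of the shared stretch cannot be told apart.

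Fech encodes ferrochelatase, which inserts iron to complete heme (chromosome 18, 64452914 to 64490251, minus strand). It read 29.6, 31.9 and 40.4 CPM in fed PC and 15.6, 22.03 and 8.65 CPM in fasted PC hepatocytes. In PP hepatocytes it read 26.0, 26.7 and 30.8 CPM in fed and 27.3, 30.8 and 15.3 CPM in fasted mice. Fed and fasted libraries were apart in PC hepatocytes and overlapped in PP hepatocytes. In PC hepatocytes Fech fell 2.20-fold (log2 -1.14 ± 0.31, adjusted p = 0.025), and in PP hepatocytes the value was -0.18 ± 0.31 (95% interval -0.86 to 0.49, adjusted p = 0.74). The test of the difference between the zones gave -0.96 ± 0.44 (adjusted p = 0.997), so the fall was not shown to differ between zones. The PC call was lost without fasted PC replicate 1 (-1.17, adjusted p = 0.055), fed PC replicate 2 (-1.20, 0.052) or fed PC replicate 3 (-0.996, 0.091), and with no filter on low counts (-1.14, 0.065). Without fasted PC replicate 2 the PC value was -1.48, and without fasted PP replicate 3 the PP value was 0.08. Averaged over zones Fech fell by 0.66 ± 0.22 (adjusted p = 0.037), called in 4 of the 12 fits that left out 1 library. It was kept when replicate 2 or 3 of fasted PC, 2 of fasted PP or 1 of fed PC was left out, and the adjusted p was 0.052 to 0.086 without any one of the other 8. With no filter on low counts the averaged call was also lost (-0.66, adjusted p = 0.087). Between zones Fech gave 0.29 ± 0.31 in fed mice and -0.67 ± 0.31 in fasted mice (adjusted p = 0.73 and 0.28). The fasted value was -1.01 without fasted PC replicate 2 and -0.93 without fasted PP replicate 3 (adjusted p = 0.13 and 0.11).

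Hmox1 encodes heme oxygenase 1, the inducible enzyme that opens the heme ring (chromosome 8, 75093621 to 75100589, plus strand). It was the lowest or next to lowest member per transcript length in every group. It read 7.21, 6.23 and 14.3 CPM in fed PC and 5.33, 6.38 and 11.0 CPM in fed PP hepatocytes. In fasted mice it read 4.02, 6.68 and 8.59 CPM in PC and 1.5, 3.25 and 7.34 CPM in PP hepatocytes. All groups overlapped, and in each of them the highest library was replicate 3. No comparison passed, with fasting at -0.52 ± 0.53 in PC (adjusted p = 0.53) and -0.90 ± 0.54 in PP hepatocytes (95% interval -2.09 to 0.29, adjusted p = 0.29). Averaged over zones the value was -0.71 ± 0.38 (adjusted p = 0.17), and without fasted PP replicate 3 it was called at -1.09 (adjusted p = 0.030). With the replicate number as a block, Hmox1 was called with fasting in PP hepatocytes (-1.03, adjusted p = 0.021) and averaged over zones (-0.77, adjusted p = 0.0080). PC against PP gave 0.28 ± 0.52 in fed and 0.67 ± 0.54 in fasted mice (adjusted p = 0.86 and 0.58), the latter 1.41 without fasted PP replicate 3. With 30.0 to 291 counts a library, these intervals span more than a doubling. Profiles close to it were those of Cs (0.46), Rbm14 (0.47), Sel1l3 (0.49) and Mavs (0.49), against a median of 0.84 over genes. Cs encodes citrate synthase and Mavs an adaptor of antiviral signalling.

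Blvrb encodes biliverdin reductase B, an enzyme that reduces biliverdin and flavins (chromosome 7, 27447978 to 27466144, plus strand). It read 117, 115 and 97.2 CPM in fed PC and 37.2, 34.1 and 29.3 CPM in fed PP hepatocytes. In fasted mice it read 94.0, 251 and 143 CPM in PC and 45.5, 36.6 and 29.1 CPM in PP hepatocytes. Every PC library was above every PP library, with the fasted PC libraries the most spread. Blvrb had the largest zone difference of the 9, 3.27-fold in fed mice (log2 1.71 ± 0.30, adjusted p = 0.0070) and 4.38-fold in fasted mice (2.13 ± 0.30, adjusted p = 0.0020). The change with fasting was 0.56 ± 0.29 in PC (adjusted p = 0.20) and 0.14 ± 0.29 in PP hepatocytes (adjusted p = 0.79). Without fasted PC replicate 1 the PC value was 0.82 (adjusted p = 0.026), and without replicate 2 it was 0.11. Averaged over zones the change was 0.35 ± 0.21 (adjusted p = 0.21). It was called as a rise without fasted PC replicate 1 (0.48, adjusted p = 0.032), and was 0.13 without replicate 2 (adjusted p = 0.53).

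Blvrb is also abundant in red cells, so the 9 listed red cell markers were read beside it. They summed to 14.5 to 50.5 CPM in fed PC, 10.6 to 13.3 in fed PP, 13.0 to 446 in fasted PC and 10.7 to 152 CPM in fasted PP libraries. The low sums are not globin RNA alone. Alas2 averaged 12.9 of 28.2 CPM in fed PC and 6.07 of 12.0 CPM in fed PP libraries. Klf1 rose with fasting in PC (1.13 ± 0.21, adjusted p = 0.0026) and PP hepatocytes (1.37 ± 0.22, adjusted p = 0.0013), as 1 of 6 tested markers. Averaged over feeding, 2 of the 6 were higher in PC hepatocytes, against 6.47% of all genes. The highest Blvrb value, 251 CPM, was in fasted PC replicate 2, the library with the most globin RNA (Hba-a1 at 102 and Hbb-bs at 130.3 CPM). The lowest, 29.1 CPM, was in fasted PP replicate 3, where Hba-a1 stood at 32.5 CPM. The membrane marker Slc4a1 averaged 0.213 CPM or less in every group. Without fasted PC replicate 1 the zone difference of fasted mice was 2.40. Without fasted PC replicate 2 it was 1.68 (adjusted p = 0.0018), and without fasted PP replicate 3 it was 1.97 (adjusted p = 0.012). In fed PC replicates 1 and 2 Hba-a1 was at 0.04 and 0.21 CPM and Blvrb at 117 and 115 CPM. Across fasted PC replicates 1, 2 and 3 Blvrb had the same order as Glul (172, 3639 and 2353 CPM). In fed PC libraries the order was the reverse (Glul at 1372, 1960 and 2171 CPM), and in neither PP group did the orders match. The part of red cell RNA in the Blvrb values was not tested, nor was the relation to Glul.

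**Figure D2:**
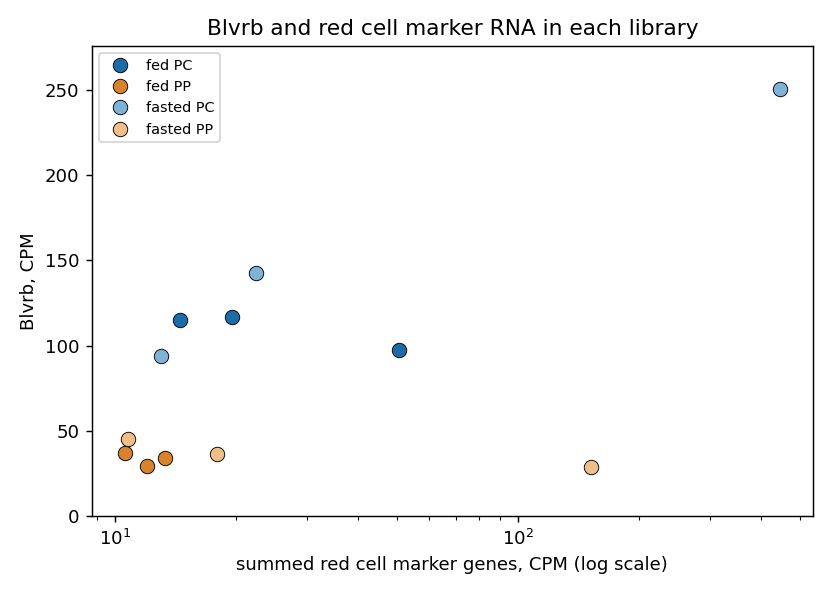
Blvrb in CPM (vertical axis) against the summed red cell markers, Alas2 and Klf1 among them, in CPM (horizontal axis, log scale), 1 point per library, coloured by group. The 6 PC libraries lie at 94.0 CPM or more and the 6 PP libraries at 45.5 CPM or less; marker sums of 446 and 152 CPM, the highest, occur in 1 library of each zone.

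By comparison, 3 of the 9 members (Alad, Cpox and Blvrb) were higher in PC hepatocytes of fed mice and none was lower, where 4.72% of all genes tested were called, 2.24% as higher and 2.47% as lower. In fasted mice the same 3 were higher and none lower, against 6.4% of genes called, 3.35% as higher and 3.05% as lower. All 6 of these calls held in each of the 12 fits that left out 1 library. Groups did not overlap for 4 members in fed mice (26% of genes) and for 3 in fasted mice (22%). The median difference over the members was 0.42 in fed and 0.33 in fasted mice, against -0.01 and -0.00 over all genes. Averaged over feeding, the 3 genes gave 0.78 ± 0.081 (Alad), 0.94 ± 0.099 (Cpox) and 1.92 ± 0.21 (Blvrb), where 13% of genes were called, 6.47% as higher and 6.5% as lower. Uros reached 0.38 ± 0.13 there (adjusted p = 0.066) and passed without fasted PC replicate 2 (0.44, adjusted p = 0.047) and in DESeq2 (0.38, adjusted p = 0.036).

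With fasting, 2 members (Uros and Fech) fell in PC hepatocytes and none rose, against 21.4% of genes called, 11.1% as higher and 10.2% as lower. In PP hepatocytes 1 member (Uros) fell and none rose, against 17.9% of genes, 8.39% as higher and 9.5% as lower. In either direction those shares of the members are near the background. Fed and fasted libraries did not overlap for 3 members in PC (41.7% of genes) and 2 in PP hepatocytes (34.6%). Averaged over zones, 4 members fell and none rose, with 35.3% of genes called, 17.8% as higher and 17.5% as lower. The members' median was -0.37 in PC and -0.18 in PP hepatocytes, against 0.00 over all genes in both.

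In the test of whether fasting acted differently in PC and PP hepatocytes, edgeR called 0 of the 9 members and 0% of the 12086 genes. At an unadjusted p under 0.05 it gave 0 members and 465 genes. DESeq2 called 0 members and 11 genes, and at an unadjusted p under 0.05 it gave 1 member, Fech, and 492 genes. For Alad the interval of this difference ran from -0.31 to 0.38 and for Cpox from -0.45 to 0.39. For Blvrb it ran from -0.49 to 1.33, for Hmox1 from -1.28 to 2.04, for Alas1 from -1.47 to 0.48 and for Fech from -1.92 to 0.01. These 4 intervals reach past a 2-fold difference.

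**Figure D3:**
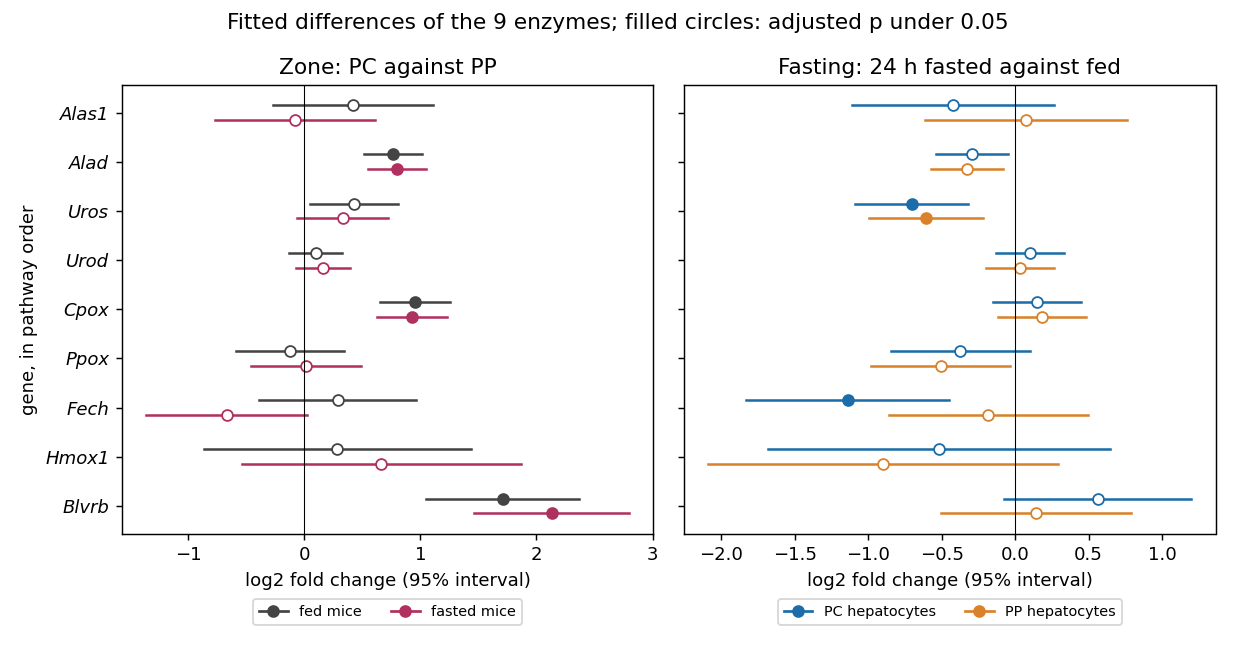
Fitted log2 fold changes with 95% intervals (horizontal axes) of the 9 genes in pathway order. On the left PC is set against PP in fed and fasted mice, on the right fasted against fed in PC and PP hepatocytes; filled circles are called genes, which are Alad, Cpox and Blvrb for zone, and Uros in both zones and Fech in PC for fasting.

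Levels of different genes were compared as CPM per kb of transcript. In fed PC hepatocytes Alas1 led (166 ± 48.1 CPM per kb), ahead of Alad (107 ± 2.93), Blvrb (107 ± 10.7), Cpox (79.1 ± 8.16) and Urod (43.9 ± 3.14). The other four followed at lower levels, from Uros (9.06 ± 0.83) through Ppox (8.05 ± 2.01) and Hmox1 (5.88 ± 2.79) to Fech (5.17 ± 0.87). Neighbours overlapped between Alad and Blvrb and among those last genes. Alas1 was clear of Alad but not of Blvrb, as its lowest library (113.2) lay just below the highest of Blvrb (113.9). In fed PP hepatocytes the order was Alas1 (125 ± 30.1), Alad (63.1 ± 5.75), Urod (41.0 ± 4.27), Cpox (40.7 ± 2.49) and Blvrb (32.6 ± 3.86), then Ppox, Uros, Hmox1 and Fech between 8.74 and 4.23. There Urod and Cpox overlapped, as did neighbours from Ppox down.

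In fasted PC hepatocytes Blvrb (158 ± 78.0 CPM per kb), Alas1 (124 ± 35.6), Cpox (87.8 ± 13.3) and Alad (87.6 ± 11.0) overlapped in turn, and Urod (47.0 ± 1.00) came next, clear of both neighbours. In fasted PP hepatocytes Alas1 (131 ± 46.6) was clear of Alad (50.3 ± 4.37), which overlapped Cpox (46.2 ± 6.4), as Cpox did Urod (42.0 ± 4.38) and Urod did Blvrb (36.0 ± 7.97). Fech, the last enzyme, was at 2.35 ± 1.02 in fasted PC and 3.73 ± 1.24 in fasted PP hepatocytes. Lengths are those of the longest coding transcript, and for Fech, at 6.571 kb, the choice of transcript weighs on its place. Alas1 made up 39.2% ± 7.93 of the summed synthesis RNA per kb in fed PC, 42.6% ± 5.27 in fed PP, 34.0% ± 5.00 in fasted PC and 45.3% ± 9.91 in fasted PP hepatocytes.

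**Figure D4:**
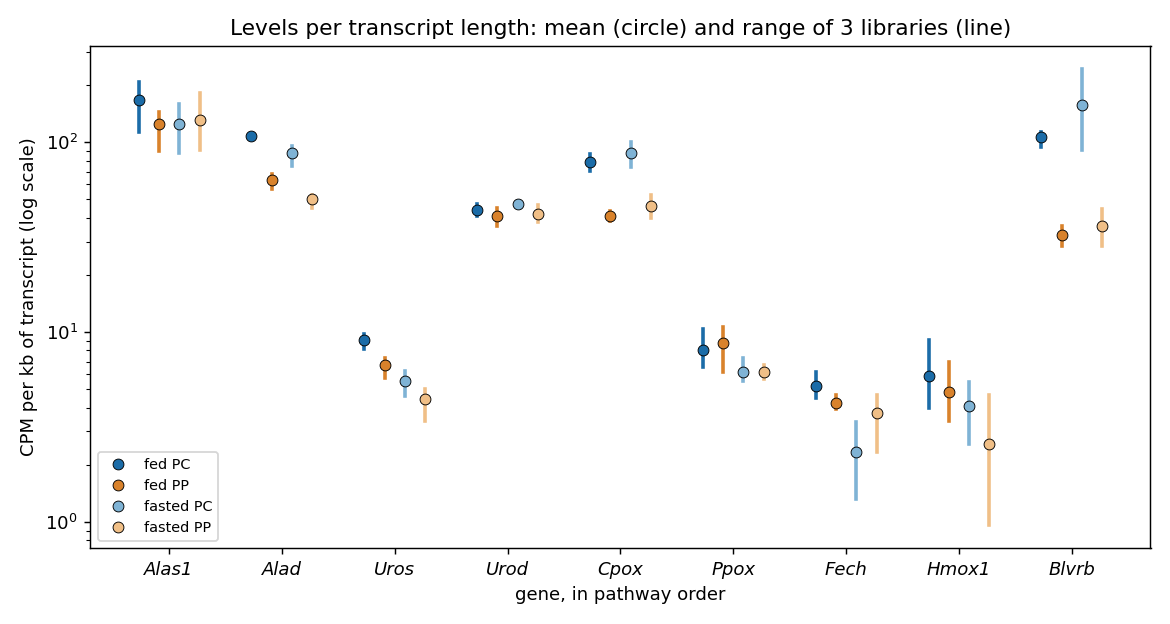
Level per transcript length in CPM per kb (vertical axis, log scale) of the 9 genes in pathway order; circles are group means and lines the range of 3 libraries. Alas1, Alad, Urod, Cpox and Blvrb lie above 28 CPM per kb in every library and Uros, Ppox, Fech and Hmox1 below 11.

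Of 7 other enzymes of the pathway, none passed by zone in fed mice, against 4.72% of all genes. In fasted mice 1 was higher in PC hepatocytes and none was lower, against 3.35% and 3.05% of all genes. Averaged over feeding, 2 were higher and 1 was lower, against 6.47% and 6.5%. With fasting 1 rose and 1 fell in each zone, where 21.4% (PC) and 17.9% (PP) of all genes were called. Hmox2, the constitutive heme oxygenase, rose with fasting from 36.3 ± 1.5 to 58.0 ± 2.87 CPM in PC (0.68 ± 0.11, adjusted p = 0.0011) and from 38.3 ± 2.96 to 63.6 ± 8.89 CPM in PP hepatocytes (0.73 ± 0.11, adjusted p = 0.00091). All fasted libraries lay above all fed ones, so Hmox2 moved opposite in sign to the fitted Hmox1 values. Cox15, which makes heme A for cytochrome oxidase, fell in both zones (-0.38 ± 0.11 and -0.42 ± 0.11, adjusted p = 0.022 and 0.017), called in 7 and 8 of the 12 fits that left out 1 library. Alas2, the red cell form of the first enzyme, was at 12.9 ± 2.82 CPM in fed PC and 6.07 ± 1.34 CPM in fed PP hepatocytes (1.09 ± 0.44, adjusted p = 0.23). Blvra, the gene of biliverdin reductase A, gave -0.11 ± 0.20 with fasting in PC and 0.19 ± 0.20 in PP hepatocytes (adjusted p = 0.72 and 0.56). Bilirubin was not measured.

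Among 17 genes of heme and iron transport and of mitochondrial cofactors, none passed by zone in fed mice, against 4.72% of all genes. In fasted mice 2 were higher in PC hepatocytes and none was lower, against 3.35% and 3.05% of all genes. These were Slc48a1, a heme exporter of lysosomes (0.89 ± 0.16, adjusted p = 0.0054), and Slc25a37, the mitochondrial iron importer mitoferrin 1 (0.70 ± 0.18, adjusted p = 0.038, called in 4 of the 12 fits that left out 1 library). With fasting 3 rose and 1 fell in PC, and 2 rose and 2 fell in PP hepatocytes. Over all genes, 21.4% were called in PC and 17.9% in PP hepatocytes, in either direction. Flvcr2, a membrane transporter first described for heme, rose from 3.09 ± 0.47 to 13.4 ± 2.93 CPM in PC (2.12 ± 0.35, adjusted p = 0.0014) and from 1.51 ± 0.72 to 8.21 ± 3.15 CPM in PP hepatocytes (2.43 ± 0.37, adjusted p = 0.0012). Abcb6, a porphyrin transporter, rose in PC hepatocytes (0.43 ± 0.10, adjusted p = 0.0083). Clpx, part of the protease that regulates ALAS1 protein, rose in PP hepatocytes (0.52 ± 0.14, adjusted p = 0.025, called in 8 of the 12 such fits). Abcb10, an exporter of the inner mitochondrial membrane, fell in PC (-0.61 ± 0.16, adjusted p = 0.019) and PP hepatocytes (-0.69 ± 0.16, adjusted p = 0.012). Without fed PP replicate 3 the PP value was -0.51 (adjusted p = 0.051), and the PC call was lost without fasted PC replicate 2 or fed PC replicate 2 or 3 (adjusted p = 0.052 to 0.065). Slc25a37 fell in PP hepatocytes (-0.73 ± 0.18, adjusted p = 0.015), lost without fasted PP replicate 1 (0.064) or fed PP replicate 3 (0.069).

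Heme scavenging and bilirubin handling, 13 tested genes, gave 3 higher and 2 lower in PC hepatocytes in each feeding state. Over all genes, 4.72% were called by zone in fed and 6.4% in fasted mice. Hpx, the plasma heme carrier hemopexin, was lower in PC hepatocytes, at 1342 ± 163 against 3607 ± 499 CPM in fed mice (-1.43 ± 0.15, adjusted p = 0.00047) and 1356 ± 174 against 3758 ± 454 CPM in fasted mice (-1.47 ± 0.15, adjusted p = 0.00031). Ambp, whose alpha-1-microglobulin also binds heme, was lower by smaller amounts (-0.52 ± 0.11 and -0.46 ± 0.11, adjusted p = 0.012 and 0.023), called in 9 and 8 of the 12 fits that left out 1 library. The bilirubin uptake carrier Slco1b2 was higher in PC hepatocytes (1.54 ± 0.18 and 1.43 ± 0.18, adjusted p = 0.00056 and 0.00076). Slco1a1, another organic anion carrier, was higher in fed mice (4.10 ± 0.62, adjusted p = 0.0049). The glutathione transferase Gsta3 was higher in fed (0.81 ± 0.12, adjusted p = 0.0022) and fasted mice (0.91 ± 0.12, adjusted p = 0.0010). Other members did not pass by zone in fed mice, among them the carrier Slco1a4 (0.11 ± 0.18, adjusted p = 0.84) and haptoglobin, Hp (-0.17 ± 0.18, adjusted p = 0.74).

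With fasting 1 of those 13 genes rose and 1 fell in PC, and 1 rose and 2 fell in PP hepatocytes. The shares called over all genes were 21.4% in PC and 17.9% in PP hepatocytes. Hp, haptoglobin, which binds free hemoglobin, rose in PP hepatocytes (0.71 ± 0.18, adjusted p = 0.018), lost without fasted PP replicate 1 or fed PP replicate 2 or 3 (0.060 to 0.069). Slco1a1 fell in PC hepatocytes (-1.99 ± 0.56, adjusted p = 0.031), lost without fasted PC replicate 2 or fed PC replicate 1 or 2 (0.065 to 0.099). Gsta3 fell in PP hepatocytes (-0.45 ± 0.12, adjusted p = 0.024, called in 8 of the 12 such fits). The exporter Abcc3 rose in PC (0.48 ± 0.16, adjusted p = 0.046) and fell in PP hepatocytes (-0.51 ± 0.16, adjusted p = 0.041), but in 2 and 5 of the 12 such fits only.

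Genes that regulate Alas1 or Hmox1, 18 in number, rose with fasting in part. None passed by zone in fed or in fasted mice, where 4.72% and 6.4% of all genes did. Averaged over feeding 1 (Nr1i3) was higher in PC hepatocytes, against 6.47% of all genes. With fasting 9 rose and none fell in PC hepatocytes (median 0.45), against 11.1% and 10.2% of all genes. In PP hepatocytes 8 rose and none fell (median 0.65), against 8.39% and 9.5% of all genes. Ppargc1a, the coactivator that drives Alas1 in fasting, rose from 7.60 ± 0.80 to 21.2 ± 7.39 CPM in PC (1.48 ± 0.40, adjusted p = 0.023) and from 12.5 ± 4.34 to 37.7 ± 20.8 CPM in PP hepatocytes (1.59 ± 0.39, adjusted p = 0.018). Those calls held in 8 and 10 of the 12 fits that left out 1 library, and the call averaged over zones (1.54 ± 0.28, adjusted p = 0.0017) in all 12. Nr1d1, the heme-binding repressor REV-ERB alpha, rose in PC hepatocytes (1.70 ± 0.45, adjusted p = 0.022, 8 of 12 fits), with 1.34 ± 0.45 in PP hepatocytes (adjusted p = 0.062). Foxo1, a transcription factor active in fasting, rose in PC (1.23 ± 0.23, adjusted p = 0.0033) and PP hepatocytes (1.17 ± 0.23, adjusted p = 0.0051). Averaged over zones 10 of the 18 rose and 1, Nfe2l2, fell (-0.58 ± 0.16, adjusted p = 0.016), against 17.8% and 17.5% of all genes. Nfe2l2 encodes NRF2, an activator of Hmox1, and was named after its value was seen. Alas1, beside them, was at -0.17 ± 0.22 (adjusted p = 0.58).

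**Figure D5:**
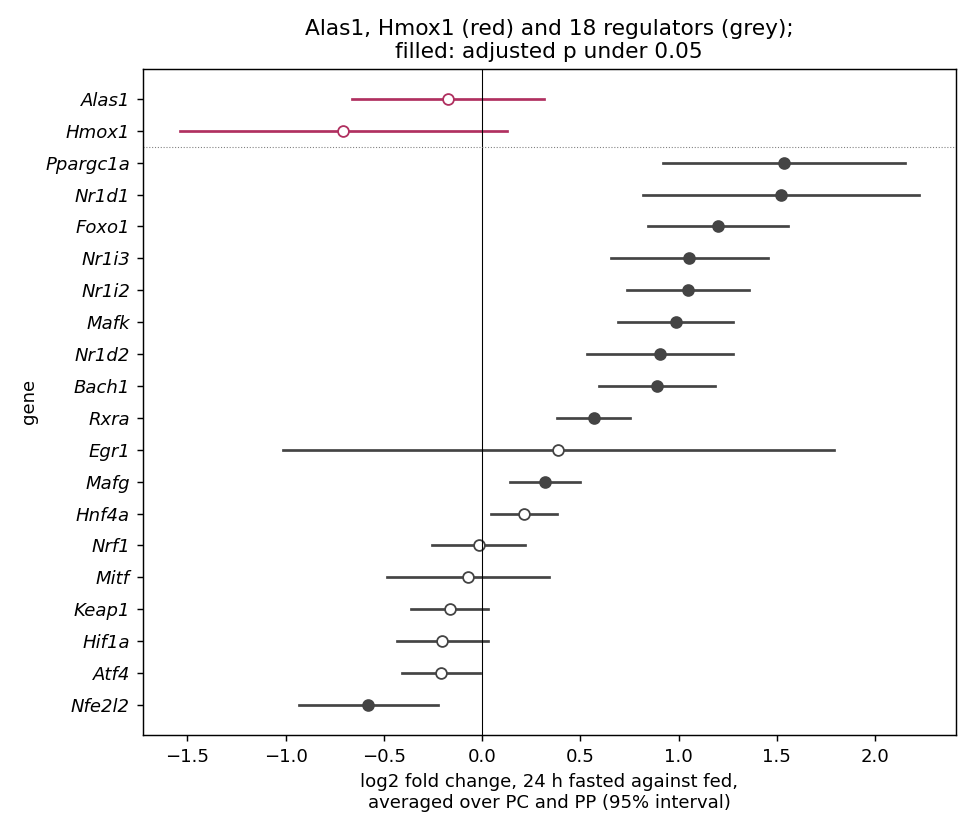
Log2 fold change of fasted against fed, averaged over PC and PP hepatocytes, with 95% intervals (horizontal axis), for Alas1 and Hmox1 (red) and 18 genes that regulate them (grey); filled circles are called genes. Of the 18, 10 are called to the right of 0 and 1 to the left, and the intervals of Alas1 and Hmox1 cross 0.

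Hepatic heme proteins, which use the product of the pathway, differed by zone in both directions. Of 27 tested, 8 were higher and 1 was lower in PC hepatocytes of fed mice, and 10 were higher and 2 lower in fasted mice. Over all genes, 2.24% were higher and 2.47% lower in fed mice, and 3.35% and 3.05% in fasted mice. Cyp2e1, an ethanol-oxidising P450, was at 9845 ± 978 CPM in fed PC and 727 ± 459 CPM in fed PP hepatocytes (3.76 ± 0.67, adjusted p = 0.011; 3.5 and 0.051 without fed PP replicate 2). Cyp1a2 gave 3.72 ± 0.42 in fed and 4.91 ± 0.44 in fasted mice (adjusted p = 0.00073 and 0.00029), and Cyp2a5, a coumarin hydroxylase, 5.43 ± 0.74 in fasted mice (adjusted p = 0.0024, and 0.056 with only these 2 groups fitted). Cyp2f2, a periportal P450, was lower in PC hepatocytes (-4.37 ± 0.48 and -3.38 ± 0.46, adjusted p = 0.00073 and 0.0019), and Cyp2b10, a drug-inducible P450, was lower in fasted mice (-1.68 ± 0.25, adjusted p = 0.0019). Summed over the Cyp1, Cyp2 and Cyp3 families, P450 RNA was 36333 ± 1735 CPM in fed PC, 17558 ± 730 in fed PP, 40447 ± 5621 in fasted PC and 14731 ± 215 CPM in fasted PP hepatocytes. The PC groups were thus above the PP groups in both states, while PC and PP libraries of Alas1 overlapped in both. The other 6 synthesis genes together, per kb, gave 253 ± 7.77, 164 ± 7.48, 237 ± 21.3 and 153 ± 10.7 in the same groups.

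With fasting 1 of the 27 heme proteins rose and 4 fell in PC, and 1 rose and 5 fell in PP hepatocytes. Over all genes, 11.1% rose and 10.2% fell in PC, and 8.39% rose and 9.5% fell in PP hepatocytes. Tdo2, the heme-dependent tryptophan dioxygenase, rose from 827 ± 146 to 1432 ± 186 CPM in PC (0.79 ± 0.16, adjusted p = 0.0039) and from 781 ± 84.2 to 1624 ± 163 CPM in PP hepatocytes (1.06 ± 0.16, adjusted p = 0.00091). Steap4, a heme-bearing metalloreductase, fell in PC (-1.07 ± 0.11, adjusted p = 9.8e-05) and PP hepatocytes (-1.06 ± 0.11, adjusted p = 0.00014). Cyp2b10 fell in PC hepatocytes (-1.21 ± 0.24, adjusted p = 0.0050), with 0.05 ± 0.23 in PP hepatocytes (adjusted p = 0.91). In PP hepatocytes Cyp1a2 fell (-1.97 ± 0.39, adjusted p = 0.0069), and so did the oxysterol hydroxylase Cyp7b1 (-1.08 ± 0.31, adjusted p = 0.031, called in 8 of the 12 fits that left out 1 library). In PC hepatocytes Cyp1a2 gave -0.78 ± 0.37 (adjusted p = 0.17). It ran from -1.39 to -0.45 over such fits and was called in 1 of the 12. For Cyp2b10, Cyp1a2 and Cyp7b1 the change was not shown to differ between zones (adjusted p = 0.997 for each in that test).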

How the data were processed

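Per the labels, total RNA of mouse hepatocytes was sequenced after library preparation with NEBNext Ultra, which is unstranded. The authors deposited estimated counts per gene, made with kallisto 0.46.0 on mm10 per the submitters' processing notes; the transcript annotation and the summing to genes are not given in the sources used here. Between 27.9% and 32.7% of a library's values were not whole numbers, and all were rounded, moving a library total by at most 120.8. Of 28030 identifiers, 27566 were found in GENCODE M21.

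Counts were filtered with filterByExpr, normalised by TMM (trimmed mean of M values) and fitted with edgeR 4.0.16 (R 4.3.3, quasi-likelihood, robust; 8 residual degrees of freedom, common biological coefficient of variation 0.2055) with 1 mean for each of the 4 groups, for 7 comparisons. SE is the unshrunk log2 fold change over the square root of the test statistic. CPM uses TMM-scaled library sizes. The script was tested on simulated data. Libraries of one group differed by more than sampling noise (chi-square per degree of freedom 25.8 to 86.5), and p-values measure only the spread between these samples.

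Alternatives were DESeq2 1.42.0, its size factors in edgeR, no filter, the replicate number as a block, only the 2 groups compared, and leaving out each library. The 9 genes and all lists were chosen with earlier results of these data known. Named genes are all members, for each list up to 2 called genes per direction in each comparison of 2 groups (mean of at least 5 CPM), and the 5 genes of at least 10 CPM closest in profile to Alas1 and to Hmox1. A few of these genes are not reported here.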

Additional observations from a re-analysis of the deposited data

How the results depend on the processing

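The number of genes called by zone in fed mice was 570, and 929 in DESeq2. By zone in fasted mice it was 774, and 376 with only the 2 groups compared. For the interaction it was 0, against 11 in DESeq2 and 1 with no filter on low counts. The number of members called with fasting was 2 in PC, and 1 with no filter; in PP it was 1, against 2 in DESeq2, 2 with the replicate block and 0 with only the 2 groups. Leaving out 1 library, genes called ran from 292 to 701 (zone, fed), 386 to 1005 (zone, fasted), 1593 to 2618 (fasting, PC), 1405 to 2414 (fasting, PP), 0 to 2 (interaction), 1164 to 1739 (zone, averaged) and 3549 to 4216 (fasting, averaged). Members called ran from 3 to 3, 3 to 3, 1 to 2, 0 to 2, 0 to 0, 3 to 4 and 2 to 4.

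Over single members, alternatives other than leaving out a library gave 280 values with the same call, 4 calls lost, 4 gained and 0 changes of sign. Leaving out 1 library gave 691, 24, 7 and 34. The changes of sign had these ranges: zone in fed mice, Ppox -0.33 to 0.061 and Hmox1 -0.17 to 0.67; zone in fasted mice, Alas1 -0.30 to 0.22 and Ppox -0.13 to 0.091; zone averaged over feeding, Ppox -0.16 to 0.035. With fasting in PP they were Alas1 -0.23 to 0.30, Urod -0.041 to 0.11, Fech -0.38 to 0.076 and Blvrb -0.0103 to 0.30. For the interaction they were Alad -0.066 to 0.11, Uros -0.29 to 0.017, Urod -0.035 to 0.12, Cpox -0.17 to 0.057, Ppox -0.051 to 0.35, Hmox1 -0.042 to 1.1 and Blvrb -0.035 to 0.68. None of these members was called there.

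Same-numbered PC and PP libraries had correlations of deviations of 0.27, 0.02 and 0.15 in fed and 0.19, -0.12 and 0.09 in fasted mice. Differently numbered ones ran from -0.21 to 0.07 in fed and from -0.27 to 0.22 in fasted mice. So few correlations cannot decide whether same-numbered libraries share a mouse, which the labels do not say. With the replicate block, Hmox1 was called with fasting in PP (-1.03, adjusted p = 0.021) and averaged over zones (-0.77, adjusted p = 0.0080), and Ppox averaged over zones was not (-0.42, adjusted p = 0.053); no other member's call changed. Of the 44 calls of named list genes in comparisons of 2 groups, 7 were lost with no filter, 11 with only the 2 groups, 2 with the replicate block, 1 with DESeq2's size factors and 0 in DESeq2. The cause of these changes was not tested. The fewest counts a library were those of Hmox1 (30.0 to 291), Uros (131 to 487), Fech (156 to 916) and Ppox (168 to 384). Alas1, on 5776 to 19801 counts, had an SE of 0.31.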
